A study of Mus musculus with 15 samples.

Results

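The comparison described here sets the hearts of sham-operated mice titled KO against those of sham-operated mice titled Cre, over all genes on the array. It uses 8 of the 15 arrays of the series, 4 of each genotype, chosen by the sample titles. The mice were males of 10 weeks on a C57BL6 background, and RNA came from the apex of the heart 3 days after the sham operation. The Cre animals carried the MHC-cre transgene, in which a myosin heavy chain promoter drives the recombinase in heart muscle cells. The KO animals carried the same transgene and are labelled MHC-cre-klf4, so the Cre transgene is common to both groups and the Klf4 alteration is what the labels give as the difference. The promoter acts in heart muscle cells, and the apex also holds fibroblasts, vessels and blood cells that the transgene does not target. The remaining 7 arrays (3 Cre, 4 KO) come from hearts after 3 days of transverse aortic constriction (TAC), a surgical pressure load, and serve here only as a second measurement of the genotype difference in other animals. The design gives separate animals for each array. In the main fit the p-values measure how the KO minus Cre difference varied over 4 pairs of animals whose arrays shared a slide. In fits without a block they measure the spread between animals of a group.

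KLF4 is a zinc finger transcription factor of the Krüppel-like family, whose members bind GC-rich and CACCC-containing DNA and either activate or repress their targets. In heart muscle cells KLF4 is known as a restraint on hypertrophic growth and as a partner of the estrogen-related receptors (ERR) and the PGC-1 coactivators, which control genes of mitochondrial oxidation. Natriuretic peptides, skeletal alpha-actin and matrix genes are textbook markers of a heart under load.

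The labels do not all point the same way. The sign used throughout, KO minus Cre, was set by the titles and source names of the scanner files. In the authors' table of processed values, 14 of the 15 arrays were found again by their rank order, each with the operation unchanged and under the other genotype, so every sign below turns if that table's labels are right. Klf4 itself did not settle the matter. Its single probe read, on slides 1 to 4, 4.30, 4.04, 3.87 and 3.72 in the Cre arrays and 4.49, 3.26, 4.03 and 3.98 in the KO arrays (log2 signal relative to each array's 75th percentile, the scale of every level below). The groups overlapped, with the lowest value on the KO array of slide 2, and the difference was -0.04 ± 0.20 (log2, SE, 4 slide pairs; limma adjusted p = 0.921). The labels do not say which part of the gene is deleted or where the probe lies, so a probe outside the deleted part would check nothing. A second conflict concerns the operation, since the description field names TAC for both sham-titled arrays of slides 2 and 4. It also names sham for TAC-titled arrays, namely Cre replicate 2 and KO replicates 2 and 4. The TAC arrays used below as a second measurement therefore carry the same conflict, and titles were followed for them too. Tnc, a matrix gene, read between -5.75 and -0.94 on all 8 sham-titled arrays and between -0.36 and 3.22 on all 7 TAC-titled arrays, so the titles and this gene divided the arrays the same way. This is 1 gene, and it also differed between the sham genotypes. Its highest sham-titled value, -0.94, was on the KO array of slide 2, which is described as TAC.

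Each slide carried 1 Cre and 1 KO sham array, and the difference was taken within slides. The sham arrays had 65.6% to 75.4% of probes well above background, and heart muscle markers were among the brightest features (Myl2, the ventricular light chain, between 8.23 and 8.65). Over all features the within-slide differences correlated between 0.279 and 0.54 among slides 2, 3 and 4, and between 0.048 and 0.162 for slide 1 with each of these. Of 24475 features tested, 14380 of them named genes, none passed an adjusted p under 0.05 with slide as a fixed block (0%; limma, Benjamini-Hochberg), and the smallest adjusted p was 0.0605. At an unadjusted p under 0.05 there were 4843 features (19.8%), 2323 higher in KO (9.49%) and 2520 lower (10.3%). Scaling to the array median in place of the 75th percentile gave 3271 higher and 1863 lower. The 4 KO and 4 Cre values did not overlap for 1713 features (7%), 924 higher (3.78%) and 789 lower (3.22%), and the difference had the same sign on all 4 slides for 7675 (31.4%), 16.1% upwards and 15.3% downwards. The typical difference was small, with a median absolute value of 0.17 and a 95th percentile of 0.72 on the log2 scale. The fixed block leaves few degrees of freedom. With slide as a random block, which assumes 1 within-slide correlation for all features (0.533) and on simulated data made more false calls than its threshold allows, 338 features passed (1.38%), 147 higher (0.601%) and 191 lower (0.78%). Named genes alone leaned the other way, with 113 of 14380 higher (0.786%) and 63 lower (0.438%) in that fit, and with slide as a fixed block 11.2% of them were higher and 7.54% lower at an unadjusted p under 0.05. These 2 shares are the background for the gene lists below, which hold named genes only, and the median difference of named genes was 0.027. On slides 1 and 3 alone, used below as an alternative, 3.49% of named genes were higher and 1.39% lower at that p. A count of 0 there in a short list therefore shows little. In the 6 TAC arrays used below, 9.63% of named genes were higher and 10.5% lower. With no block 6 passed (0.0245%), 2 of them higher (0.00817%), and 2484 had an unadjusted p under 0.05 (10.1%). In a fit of 4 groups on 14 arrays 24 passed (0.0981%). In what follows "higher" and "lower" describe values. The random-block adjusted p stands beside the fixed one for most of the genes given array by array. Nppb, Acta1, Itgam and Ppargc1b are given without either, and none of them passed 0.05 in either fit.

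The features called with no block were a gene of the hydrolase class, a ubiquitin ligase and probes without a gene name. Hdhd3, a member of the haloacid dehalogenase-like hydrolase family, read 0.04, -0.05, 0.00 and -0.28 in Cre and 1.44, 1.53, 1.43 and 1.37 in KO on slides 1 to 4. Every KO array lay far above every Cre array, and the difference was 1.51 ± 0.09 (SE; limma adjusted p = 0.114 with slide as a fixed block, 0.000449 as a random block and 0.005 with no block). Rnf43, a membrane ubiquitin ligase that removes Wnt receptors from the cell surface, read -5.24, -5.09, -5.20 and -5.29 in Cre and -3.94, -3.84, -4.12 and -3.72 in KO. Again the groups were far apart, at a low level of signal, with a difference of 1.30 ± 0.11 (limma adjusted p = 0.13 fixed, 0.0023 random, 0.0196 with no block). The unnamed probe A_52_P628870, which also passed with no block, read -3.35, -2.87, -2.80 and -3.49 in Cre and -7.44, -6.67, -6.44 and -6.67 in KO. It was well above background on 4 of 4 Cre arrays and 1 of 4 KO arrays, so its KO level is not measured on 3 arrays, and the difference of -3.68 became -1.14 after normexp background correction with quantile normalization and -1.79 with the authors' values. Probes A_51_P370073 (-2.50 ± 0.17) and A_52_P458141 (-2.37 ± 0.19; -1.11 after normexp) were also lower in KO with no overlap. A_52_P908036 was not well above background on any KO array, which gives at least 3.1-fold lower signal in KO with the scanner files' own background subtraction. With the authors' values its log2 difference was -1.18, which is smaller than that bound. The files used here give no gene for these 4 probes, and they were chosen after their values were seen.

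Among named genes higher in KO without overlap, the 10 of smallest unadjusted p were Hdhd3, Rnf43, Mefv, Bmp8a, Elavl4, Faxc, Scg3, Bspry, Zfp941 and Nppa. All 10 passed with slide as a random block (0.786% of named genes), which their choice by p from the same values made likely and which is no separate support. Mefv, which encodes the inflammasome sensor pyrin, differed by 1.67 ± 0.11. Bmp8a, a ligand of the bone morphogenetic protein family, was well above background on 4 KO arrays and on no Cre array. With the scanner files' own background subtraction this gives at least 2.25-fold higher signal in KO. That bound did not hold after normexp, where the log2 difference was 0.27. Elavl4, a neuronal RNA-binding protein, differed by 1.40 ± 0.11, Faxc by 1.28 ± 0.12 and Scg3, a protein of secretory granules, by 1.19 ± 0.12. Most of these genes gave dim signals, below -2 on every sham array, whereas Hdhd3 and Nppa were bright. Bspry differed by 1.26 ± 0.13 and the zinc finger gene Zfp941 by 1.53 ± 0.17. The size of the differences in the dim genes depended on the background correction. After normexp with quantile normalization, 8 of the 10 differences were smaller by over 1.5 times, among them Mefv (0.47), Rnf43 (0.40), Bmp8a (0.27), Elavl4 (0.64) and Zfp941 (0.58), while Hdhd3 (1.37) and Nppa (1.48) were not. All 10 kept their sign.

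The 10 lower genes chosen the same way were Klf3, Pard3b, Dnmt3a, Rnf166, Jmy, Ano10, Cdkn1b, Elk4, Gja3 and Acvr2b. All 10 passed with slide as a random block (0.438% of named genes), which again their choice from the same values made likely. Klf3, a family member that acts mainly as a repressor and binds the same CACCC-type sites as KLF4, read 1.33, 1.04, 1.18 and 0.78 in Cre and 0.00, -0.24, 0.33 and -0.37 in KO. The KO values lay below every Cre value, and the difference was -1.15 ± 0.11 (limma adjusted p = 0.149 fixed, 0.0162 random). Its second, dimmer probe differed by -0.46. Pard3b, a cell polarity protein, differed by -0.93 ± 0.09, and its other 2 probes by -1.27 and -0.89. Dnmt3a, a DNA methyltransferase that sets new methylation marks, differed by -0.86 ± 0.09 on its brightest probe, and its other 2 probes by 0.03 and -0.28. Cdkn1b, the cell cycle inhibitor p27, differed by -0.78 ± 0.10, Jmy, a cofactor of p53 and an actin nucleator, by -0.83 ± 0.11, and Acvr2b, an activin receptor, by -0.63 ± 0.08. The 10 lower genes differed by -1.15 to -0.63. Other probes differed by -0.68 for Cdkn1b, -0.39 for Jmy, -0.10 for Ano10 (-1.02 on its brightest) and -0.21 for Elk4 (-0.90 on its brightest). After normexp 3 of the 10 were smaller by over 1.5 times, Elk4 (-0.48), Gja3 (-0.59) and Acvr2b (-0.33), and Klf3 (-1.10) was not.

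**Figure D1:**
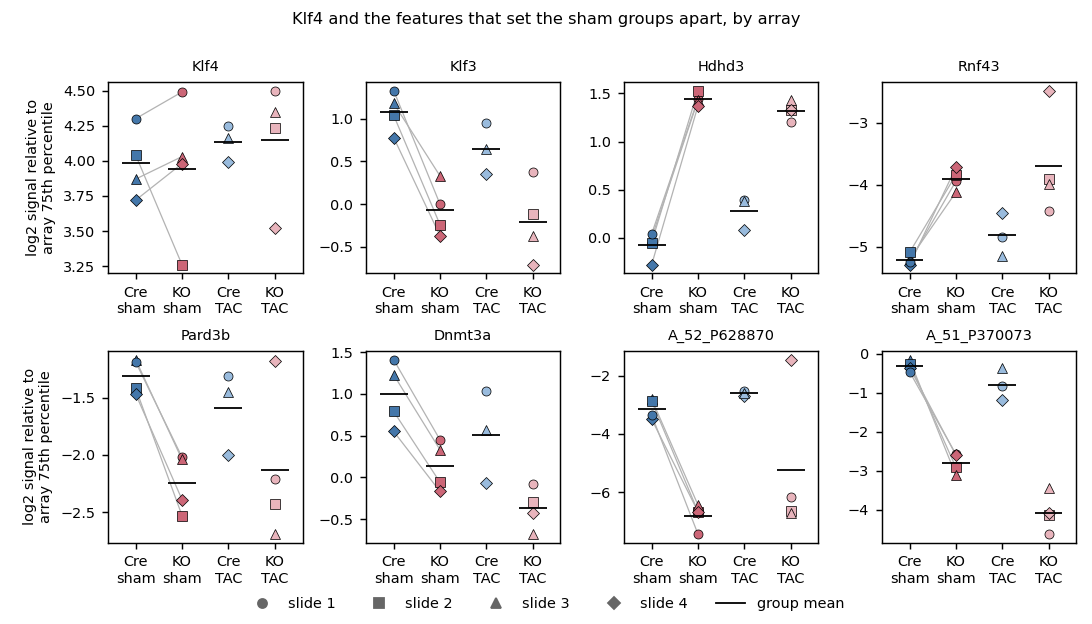
Log2 signal relative to each array's 75th percentile (vertical axes) of Klf4, 5 named genes and 2 unnamed probes in the 4 groups; each symbol is 1 array, its shape the slide, the horizontal line the group mean, and grey lines join the sham arrays of 1 slide. Klf4 overlaps between the sham groups, Hdhd3 and Rnf43 are higher and Klf3, Pard3b, Dnmt3a and both probes lower in all 4 KO sham arrays than in every Cre sham array.

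The 7 TAC arrays share slides but no animal with the sham arrays, and measure the same contrast again. One of them, KO replicate 4, stood apart from all others (95.7% of probes well above background, median correlation 0.807), so values are given with and without it. All 10 higher genes had the same sign in the 7 TAC arrays and 9 of 10 in the 6 without that replicate, and of the 10 lower genes 9 and 10 did. Over all features 58.1% and 65.4% had the same sign. At an unadjusted p under 0.05 (9.8% of all features with 7 arrays, 20% with 6), 4 of the higher and 5 of the lower genes had the same sign with 7 arrays, and 4 and 8 with 6. Of the 338 features that passed with slide as a random block, a set added after the values were seen, 265 had the same sign in the 7 arrays and 285 in the 6. Hdhd3 differed by 1.04 ± 0.17 (SE) in the 6 TAC arrays and Klf3 by -0.68 ± 0.26, and A_52_P628870 was well above background on 3 of 3 Cre and 1 of 4 KO TAC arrays. All 6 features called with no block kept their sign. None of the 6 passed an adjusted p under 0.05 with 7 arrays (limma), where 4 passed an unadjusted p under 0.05, and 2 passed without KO replicate 4, where 6 passed unadjusted (0.0163% of all features passed there). The difference between the TAC and sham contrasts was tested for these 6 and passed for none (limma, smallest adjusted p = 0.317, or 0.0871 without KO replicate 4; 0.0613% and 1.46% of all features passed).

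By chromosome, the named features that passed with slide as a random block were 28 of 898 on chromosome 4 (3.12%), where Klf4 lies, and 148 of 13482 on all others (1.1%), a split made after the values were seen. The next largest share was 2.18%, on chromosome 1. Counted by values without overlap, 6.24% of the chromosome 4 features were higher, against 4.73% on all others, and chromosomes 3 (7.67%), 18 (7.1%) and 15 (6.71%) had larger shares. Of the 28 that passed, 25 were higher in KO, among them Hdhd3, Bspry, Elavl4, Faxc, Bmp8a, Tnc and Nppa. The largest difference of the 28, Ccl27a at -3.01, was lower. Of the 10 leading higher genes, picked by p from these same values, 6 lay there, and of the 10 lower ones 0. Chromosome 4 held 898 of the 14380 named genes tested. In annotation order Bspry and Hdhd3 stand 131 and 132 genes from Klf4, while Nppa stands 1819 away. Among the 100 genes on each side of Klf4, 42 were tested, and 10 were higher and 4 lower at an unadjusted p under 0.05 (11.2% and 7.54% of named genes), with a median of 0.005, led by Ptgr1, a prostaglandin reductase (0.81 ± 0.10), and Gng10, a G protein subunit (0.49 ± 0.09), both of which passed with slide as a random block. Abitram (0.69 ± 0.13; 0.14 after normexp), Ugcg, which makes glucosylceramide (0.40 ± 0.09), Tal2 (1.01 ± 0.24; 0.28 after normexp) and Nipsnap3b (0.50 ± 0.13) were the next in order.

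The sequence just upstream of 3 of the leading genes is shown because CACCC is the core of the site that KLF4 and KLF3 bind. The windows are the 250 bases before the RefSeq start (build GRCm38.p6), 5′ to 3′ on the gene's strand, with CACCC or its other-strand form GGGTG in capitals. Hdhd3 is chr4:62502201-62502450 on the minus strand, Klf3 chr5:64803271-64803520 and Nppa chr4:148000472-148000721, both on the plus strand.
Hdhd3: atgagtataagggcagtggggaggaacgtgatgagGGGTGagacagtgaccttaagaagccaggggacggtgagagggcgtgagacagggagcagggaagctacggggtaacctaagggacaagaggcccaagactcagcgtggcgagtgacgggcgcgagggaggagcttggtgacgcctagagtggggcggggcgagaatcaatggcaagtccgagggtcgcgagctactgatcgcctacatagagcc
Klf3: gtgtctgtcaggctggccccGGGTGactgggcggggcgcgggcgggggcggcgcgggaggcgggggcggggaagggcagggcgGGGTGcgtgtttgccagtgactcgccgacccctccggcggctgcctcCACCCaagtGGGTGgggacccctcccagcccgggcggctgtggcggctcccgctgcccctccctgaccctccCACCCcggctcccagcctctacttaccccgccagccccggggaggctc
Nppa: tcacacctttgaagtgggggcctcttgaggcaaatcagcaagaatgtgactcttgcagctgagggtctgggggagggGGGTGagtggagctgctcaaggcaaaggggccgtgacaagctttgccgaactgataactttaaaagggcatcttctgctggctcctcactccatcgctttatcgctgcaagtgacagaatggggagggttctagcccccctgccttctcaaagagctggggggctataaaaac
The Klf3 window holds CACCC at 2 places and GGGTG at 3, and the windows of Hdhd3 and Nppa hold GGGTG at 1 place each. Either form was found in 52% of all 32851 promoter windows of this length, in 56.3% of those of tested genes, in 59.6% of the 89 with a window among the higher random-block genes and in 52.6% of the 57 among the lower ones.

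In the Krüppel-like family 16 of 17 members were tested, of which 2 were higher (Klf6 by 0.32 ± 0.09 and Klf1 by 0.32 ± 0.12, the second by 0.03 after normexp) and 2 lower (Klf3, and Klf12 by -0.52 ± 0.14) at an unadjusted p under 0.05 (11.2% and 7.54% of named genes). The family's median difference was -0.001, against 0.027 over named genes.

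Genes of cardiac load and the fetal programme were higher in the KO sham hearts. Of 24 tested, 22 differed upwards, 11 of them at an unadjusted p under 0.05 and none downwards (11.2% and 7.54% of named genes), with a median of 0.39. Nppa, which encodes atrial natriuretic peptide, read 6.70, 6.79, 6.63 and 5.54 in Cre and 7.62, 8.49, 8.38 and 7.39 in KO on slides 1 to 4. The KO values lay above every Cre value, and the difference was 1.55 ± 0.18 (SE; limma adjusted p = 0.149 fixed, 0.0309 random); its other probe differed by 2.41. Nppb, the B-type peptide, read 6.05, 5.18, 5.42 and 4.64 in Cre and 6.27, 7.13, 6.43 and 6.17 in KO, and differed by 1.18 ± 0.29. Acta1, skeletal alpha-actin, which the fetal heart uses, read 4.91, 4.83, 5.15 and 3.97 in Cre and 5.36, 7.51, 6.99 and 5.52 in KO. The KO arrays of slides 2 and 3 were the highest, and the difference was 1.63 ± 0.36 with no overlap. Ankrd1, a stretch-responsive titin partner, differed by 1.00 ± 0.16 without overlap (limma adjusted p = 0.149 fixed, 0.0355 random). Myh7, the slow myosin heavy chain, differed by 0.44 ± 0.12 with overlapping groups, and Myh6, the adult chain, by -0.05 ± 0.13. The list's count was 7 to 13 with 1 array left out, lowest without slide 3 or slide 4 (leaving out either array of a slide removes that pair), and its slide medians were 0.16, 1.05, 0.46 and 0.27. On slides 1 and 3 alone, whose descriptions also name sham, 3 of 24 were higher and none lower at that p (3.49% and 1.39% of named genes; 5.61% of all features in either direction) with a median of 0.39. In the 6 TAC arrays the list's median was 0.35, with 9 genes higher and none lower at that p (9.63% and 10.5% of named genes), and with all 7 it was 0.18. There Nppa differed by 0.13 ± 0.18 without KO replicate 4, and the difference between the contrasts had a limma adjusted p of 0.116 with 15 arrays and 0.0477 without KO TAC replicate 4.

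**Figure D2:**
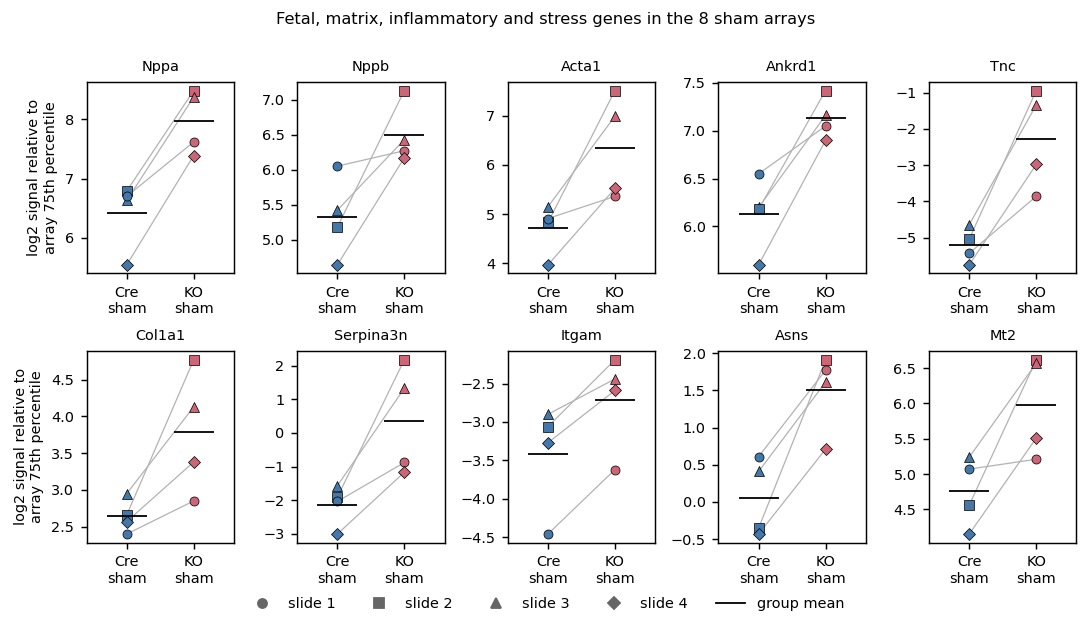
Log2 signal relative to each array's 75th percentile (vertical axes) of 10 genes in the 4 Cre and 4 KO sham arrays; symbols are arrays, their shape the slide, grey lines join 1 slide and the black line is the group mean. Nppa, Nppb, Acta1, Ankrd1, Tnc, Serpina3n and Asns do not overlap, and the KO array of slide 1 is the one nearest to Cre for Tnc and Acta1.

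Matrix genes were higher too. Of 36 listed, 33 were tested and all 33 differed upwards, 15 of them at an unadjusted p under 0.05 (11.2% of named genes), with a median of 0.41. Tnc, tenascin C, a matrix protein that heart tissue makes after injury, read -5.43, -5.04, -4.64 and -5.75 in Cre and -3.86, -0.94, -1.34 and -2.98 in KO. The KO values lay above every Cre value, those of slides 2 and 3 most, and the difference was 2.94 ± 0.41 (limma adjusted p = 0.149 fixed, 0.0321 random), or 1.57 after normexp. Mmp14, a membrane-bound collagenase, differed by 0.51 ± 0.11 without overlap, and the collagens Col14a1 (0.99 ± 0.22) and Col8a1 (1.19 ± 0.28) with overlap. Leaving out 1 array gave 11 to 18 genes at that p and slides 1 and 3 alone gave 9 (3.49% of named genes there), with a median of 0.23. Slide medians were 0.20, 1.20, 0.43 and 0.37. The TAC arrays did not repeat this direction, with a median of -0.21 in 7 arrays and -0.07 in 6, and 1 gene higher and 6 lower at that p in the 6 (9.63% and 10.5% of named genes).

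Fibroblast markers were mixed. Of 18, 6 were higher and 2 lower at an unadjusted p under 0.05 (11.2% and 7.54% of named genes), with a median of 0.37. The higher ones were led by matrix products, Col3a1 (1.17 ± 0.28), Col1a1 (1.14 ± 0.28) and Mgp, an inhibitor of calcification (0.64 ± 0.13). Smoc2 differed by -0.57 ± 0.12 without overlap, and of the defining markers Tcf21 differed by -0.34 ± 0.12, Pdgfra by 0.18 ± 0.10 and Dpt by 0.41 ± 0.14. With no block 3 were higher and 1 lower, where 10.1% of all features passed that p in either direction. Leaving out 1 array gave 4 to 6 higher, and slides 1 and 3 alone gave 5 and 0 (3.49% and 1.39% of named genes there). In the TAC arrays the list went the other way, with medians of -0.65 in 7 arrays and -0.49 in 6. In the 6, 0 were higher and 9 lower at that p (9.63% and 10.5% of named genes). In bulk tissue fewer cells of a type and less RNA per cell cannot be told apart.

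Most genes of the inflammatory list were higher as well. Of 30 cytokines, chemokines and acute phase genes tested, 26 differed upwards and 4 downwards, with a median of 0.53. At an unadjusted p under 0.05, 13 were higher and 1 lower (11.2% and 7.54% of named genes). The chemokines Ccl27a (-3.01; limma adjusted p = 0.0337 random) and Ccl19 (-1.18; 0.0401 random), which are outside the list, were lower in KO. Serpina3n, a secreted protease inhibitor of the acute phase, read -2.04, -1.91, -1.57 and -3.01 in Cre and -0.88, 2.18, 1.33 and -1.17 in KO. No values overlapped, the KO arrays of slides 2 and 3 were highest, and the difference was 2.50 ± 0.49 (limma adjusted p = 0.149 fixed, 0.0569 random). Lcn2, an iron-sequestering protein of the acute phase, differed by 1.54 ± 0.29, and the monocyte chemokines Ccl6 by 1.09 ± 0.21 and Ccl9 by 0.84 ± 0.16. Leaving out 1 array gave 10 to 16 higher genes, and slides 1 and 3 alone gave 5 (3.49% of named genes there), with a median of 0.24. The slide medians were 0.14, 1.24, 0.34 and 0.59. In the TAC arrays the medians were 0.35 with 7 arrays and 0.60 with 6, with 6 higher and 4 lower at that p in the 6 (9.63% and 10.5% of named genes).

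Macrophage and monocyte markers moved with these lists. Of 23, 21 differed upwards, 15 at an unadjusted p under 0.05 and none downwards (11.2% and 7.54% of named genes), with a median of 0.49 and slide medians between 0.30 and 0.79. Itgam, an integrin of myeloid cells, read -4.46, -3.06, -2.90 and -3.27 in Cre and -3.62, -2.19, -2.44 and -2.59 in KO. It was higher in KO on each slide although the groups overlapped, because both arrays of slide 1 were low, and the difference was 0.71 ± 0.10, or 0.44 after normexp. Mrc1, the mannose receptor (0.71 ± 0.12), Aif1 (0.64 ± 0.14), Fcgr3, an antibody receptor (0.70 ± 0.16), and Adgre1, the F4/80 antigen (0.71 ± 0.19), were similar, while Csf1r, the receptor that macrophages depend on, differed by 0.19 ± 0.13. Dimmer probes differed by 0.29 for Itgam, 0.58 for Aif1, 0.55 for Fcgr3, 0.10 for Adgre1, and -0.01 and 0.20 for Csf1r. With no block 3 of the 23 markers were higher at that p, where 10.1% of all features passed it in either direction. On slides 1 and 3 alone 8 were higher (3.49% of named genes there). In the TAC arrays the medians were -0.41 with 7 arrays and -0.42 with 6, with 0 higher and 5 lower at that p in the 6 (9.63% and 10.5% of named genes). The log2 of the markers' mean signal ran from 2.30 to 2.84 in Cre and from 2.51 to 3.22 in KO. Of 10 neutrophil markers tested, 4 were higher and 0 lower at an unadjusted p under 0.05 (11.2% and 7.54% of named genes). In the TAC arrays their medians were 1.38 with 7 arrays and 1.5 with 6, with 6 higher and 0 lower at that p in the 6 (9.63% and 10.5% of named genes). Their median in sham hearts was 0.61, largest on slide 4 (2.61) and -0.02, -0.40 and 0.25 on slides 1 to 3. On slide 4 the KO array read 0.92 for S100a8 and 3.46 for S100a9, against at most -2.55 and 0.47 on the other sham arrays. Il1r2, a decoy receptor for interleukin 1, was well above background on 3 KO arrays and no Cre array. With the scanner files' own background subtraction this gives at least 1.76-fold higher signal in KO. Of the 16 lymphocyte markers tested, none passed an unadjusted p under 0.05. The part of these cells in the inflammatory and matrix differences was not tested.

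Part of the integrated stress response was higher, a programme that cells switch on when amino acids or protein folding fail. Of 18 genes, 7 were higher and 1 lower at an unadjusted p under 0.05 (11.2% and 7.54% of named genes), with a median of 0.38. Asns, asparagine synthetase, read 0.61, -0.35, 0.41 and -0.43 in Cre and 1.77, 1.91, 1.61 and 0.71 in KO. The KO values lay above every Cre value, and the difference was 1.44 ± 0.22 (limma adjusted p = 0.149 fixed, 0.0371 random). Psat1, of serine synthesis, differed by 1.05 ± 0.23 without overlap, Mthfd2, a mitochondrial folate enzyme, by 1.34 ± 0.46 and Nupr1, a stress-induced chromatin protein, by 0.60 ± 0.20. The count depended on the pairs used, with 2 higher without slide 2 or without slide 3, 10 without slide 1 and 3 without slide 4, and slide 1 alone had a median of -0.17. On slides 1 and 3 alone 1 of 18 was higher (3.49% of named genes there), with a median of 0.14. In the 6 TAC arrays 6 were higher and 1 lower (9.63% and 10.5% of named genes), with a median of 0.13. The immediate early factors, which follow growth and stress signals within minutes, had 3 of 19 higher (11.2% of named genes), with a median of 0.34. These 3 were Maff (0.47 ± 0.08), Egr2 (1.03 ± 0.27) and Myc (1.13 ± 0.32). Their count was 9 without slide 1, 2 without slide 3 and 0 on slides 1 and 3 alone (3.49% of named genes there), where the median was 0.04. Of the 19 immediate early factors, 13 were higher and none lower in the 6 TAC arrays (9.63% and 10.5% of named genes), with a median of 1.30. Metallothioneins, which bind metals and oxidants, stood at the top of the antioxidant list, with Mt2 at 1.22 ± 0.31 and Mt1 at 0.54 ± 0.14. That list had 4 genes higher and 2 lower of 28 (11.2% and 7.54% of named genes), and 0 and 0 on slides 1 and 3 alone (3.49% and 1.39%). Of the endoplasmic reticulum stress genes 0 of 19 were higher and 1 lower, Xbp1, a transcription factor of that response (-0.27 ± 0.08). Of the heat shock chaperones 1 of 20 was higher, Hsp90aa1 (0.67 ± 0.25).

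**Figure D3:**
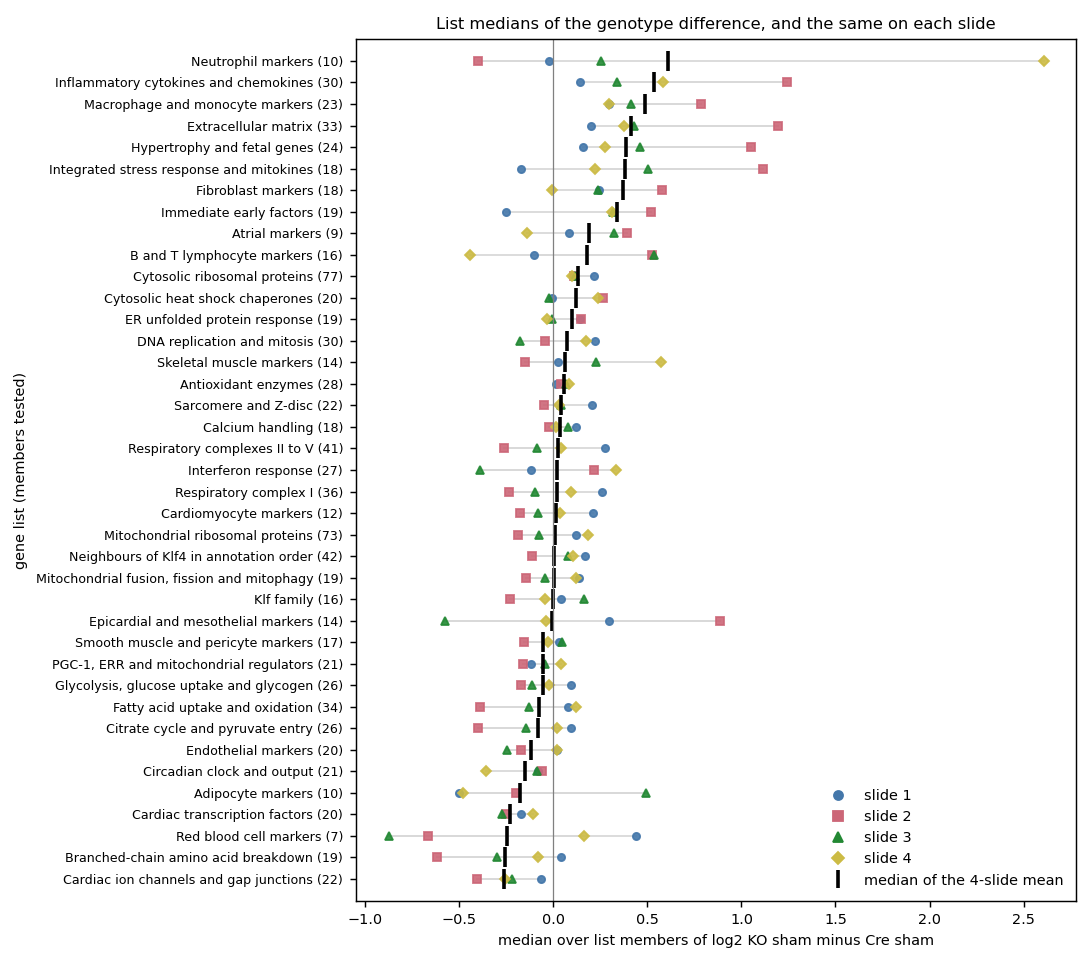
Median over the members of each gene list of the log2 difference, KO sham minus Cre sham (horizontal axis), with the members tested in brackets; coloured symbols are the medians on single slides and the black tick the median of the 4-slide mean. Matrix, macrophage, inflammatory and fetal lists lie to the right on all 4 slides, mitochondrial lists straddle 0, and the neutrophil list is spread by slide 4.

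Some regulators of mitochondrial oxidation were lower by small amounts, and few genes of the enzymes they control passed the same p. Of 21 regulators tested, 5 were lower and none higher at an unadjusted p under 0.05 (7.54% and 11.2% of named genes), with a median of -0.06. Ppargc1a, which encodes the coactivator PGC-1alpha, read 3.19, 3.36, 3.40 and 3.31 in Cre and 2.74, 2.73, 3.06 and 2.91 in KO. The KO values lay below every Cre value, and the difference was -0.45 ± 0.09 (limma adjusted p = 0.149 fixed, 0.045 random). Ppara, a nuclear receptor that switches on fat oxidation, read 2.75, 2.84, 3.02 and 2.74 in Cre and 2.22, 2.16, 2.70 and 2.15 in KO. The KO values again lay below every Cre value, and the difference was -0.53 ± 0.10 (limma adjusted p = 0.149 fixed, 0.0505 random). Ppargc1b (PGC-1beta) read 3.71, 3.43, 3.38 and 3.31 in Cre and 3.21, 3.23, 3.17 and 2.84 in KO, without overlap, a difference of -0.35 ± 0.10. Ncor1, a corepressor of these receptors, differed by -0.34 ± 0.11, Esrrb by -0.36 ± 0.14, Esrrg by -0.26 ± 0.13 and Esrra, the main ERR of the heart, by -0.09 ± 0.10, all with overlap. Tfam, which packages mitochondrial DNA, differed by 0.18 ± 0.13. The count of lower regulators was 2 without slide 1 or slide 4 and 3 without slide 2 or with no block, where 10.1% of all features passed that p. It was 0 on slides 1 and 3 alone, where 1.39% of named genes were lower. In the 6 TAC arrays 6 were lower and 1 higher (10.5% and 9.63% of named genes), with a median of -0.27.

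Respiratory chain genes showed no common direction. Of 36 complex I genes 0 were higher and 0 lower at an unadjusted p under 0.05, with a median of 0.02 that was 0.26 on slide 1 and -0.23 on slide 2. The shares of named genes at that p, 11.2% higher and 7.54% lower, are the background for each list in this paragraph. Of 41 genes of complexes II to V, 2 were higher and 2 lower, the lower ones being the succinate dehydrogenase subunits Sdhc (-0.40 ± 0.11, no overlap) and Sdha (-0.49 ± 0.16). Cox7c, one of the higher ones (0.60 ± 0.16), read -0.17 and 0.88 on slide 1 and 3.61 to 4.70 elsewhere. None of 34 genes of fatty acid uptake and oxidation passed that p, with Cpt1b, the mitochondrial gate for fatty acids in muscle, at 0.05 ± 0.12 and Hadha at -0.36 ± 0.14. In the citrate cycle list 3 of 26 were lower and none higher (7.54% and 11.2% of named genes). These 3 were Pdk2, a kinase that closes pyruvate entry (-0.41 ± 0.09), Ogdh (-0.36 ± 0.11) and Idh2 (-0.41 ± 0.14). In glycolysis and glycogen 4 of 26 were lower and none higher, led by Phkg1, a phosphorylase kinase subunit (-1.04 ± 0.29), with Pkm (-0.32 ± 0.10), Gys1 (-0.36 ± 0.11) and Pygm (-0.34 ± 0.11) not overlapping. Branched-chain amino acid breakdown had 5 of 19 lower and none higher, with a median of -0.26, including the transaminase Bcat2 (-0.45 ± 0.11) and Bckdha, of the rate-setting dehydrogenase (-0.33 ± 0.12). That median was 0.04 on slide 1 and -0.62 on slide 2. These counts of lower genes moved with the arrays used. Branched-chain breakdown had 1 without slide 3 or with no block, 2 without slide 2, 3 without slide 4 and 7 without slide 1, and the glycolysis list 1 without slide 1, 2 or 3 and 4 without slide 4. The citrate cycle list had 1 without slide 2 or slide 4 and 2 without slide 1 or slide 3. On slides 1 and 3 alone all 3 lists had 0, but only 1.39% of named genes were lower at that p there, so this shows little. In the 6 TAC arrays they had 7, 8 and 2 lower (10.5% of named genes), with medians of -0.50, -0.20 and -0.26. Of 73 mitochondrial ribosomal proteins 2 were lower, Mrpl9 and Mrpl4, with a median of 0.01, while scaling to the array median gave 6 higher and 1 lower. Of the 77 cytosolic ribosomal proteins 76 differed upwards, by a median of 0.13, and 7 passed an unadjusted p under 0.05, the furthest being Rpl3 (0.63 ± 0.11). That count was 1 or 2 with any array left out, 1 with no block and 16 with scaling to the array median.

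**Figure D4:**
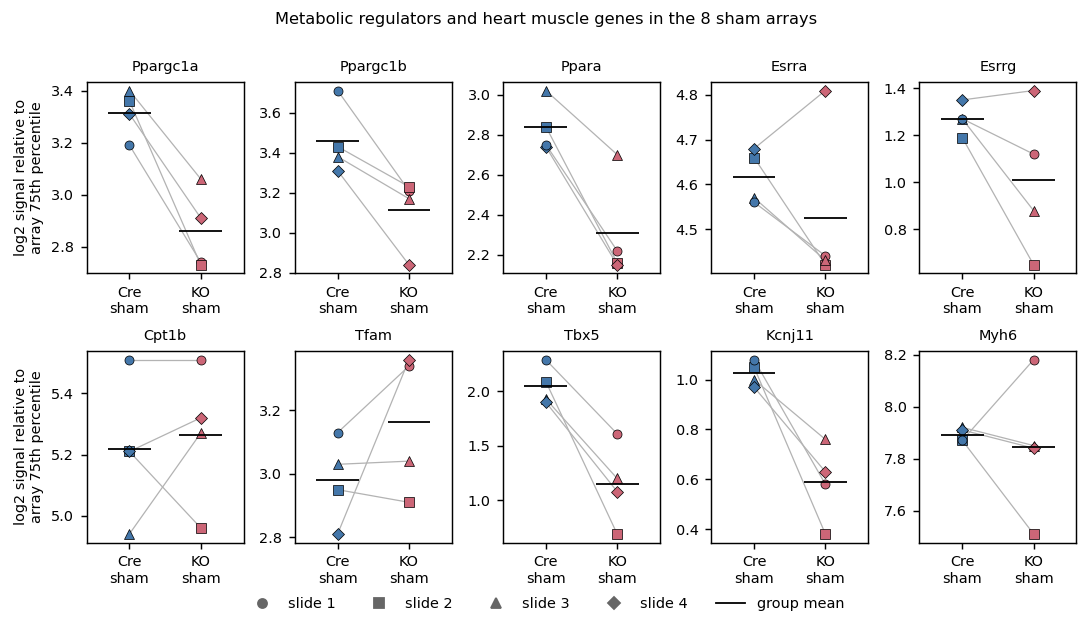
Log2 signal relative to each array's 75th percentile (vertical axes) of 7 metabolic regulators and enzymes and 3 heart muscle genes in the 4 Cre and 4 KO sham arrays, with symbols and lines as for the fetal and matrix genes. Ppargc1a, Ppargc1b, Ppara, Tbx5 and Kcnj11 are lower in all KO arrays than in every Cre array, while Esrra, Esrrg, Cpt1b, Tfam and Myh6 overlap.

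Factors that maintain heart muscle identity and its electrical channels tended to lower values. Of 20 cardiac transcription factors 5 were lower and none higher at an unadjusted p under 0.05 (7.54% and 11.2% of named genes), with a median of -0.23. Tbx5, a T-box factor of heart development and rhythm, read 2.29, 2.09, 1.93 and 1.90 in Cre and 1.61, 0.69, 1.20 and 1.08 in KO. The KO values lay below every Cre value, and the difference was -0.91 ± 0.15 (limma adjusted p = 0.149 fixed, 0.0366 random); a dimmer probe differed by -0.95. Mef2a, a muscle gene activator, differed by -0.54 ± 0.12, Tead1, a partner of the Hippo pathway, by -0.47 ± 0.13 (-0.17 after normexp), and Zfpm2, a GATA4 cofactor, by -0.27 ± 0.08. On slides 1 and 3 alone (1.39% of named genes lower there), and without slide 3, 2 of the 20 were lower at that p. Scaling to the array median gave 3. In the 6 TAC arrays 2 were lower and 3 higher (10.5% and 9.63% of named genes), with a median of -0.34. Of 22 ion channel and gap junction genes 6 were lower and 2 higher (7.54% and 11.2% of named genes), with a median of -0.26. With no block 3 were lower and 1 higher (10.1% of all features passed there in either direction), while leaving out 1 array gave 6 to 9 lower and 1 higher. On slides 1 and 3 alone 0 were lower and 0 higher (1.39% and 3.49% of named genes there). In the 6 TAC arrays 11 were lower and 1 higher (10.5% and 9.63% of named genes), with a median of -0.72. Kcnj11, a pore subunit of the ATP-sensitive potassium channel, differed by -0.44 ± 0.11 without overlap. Kcnip2, which supports the transient outward current, differed by -0.54 ± 0.11 and Kcna5, an atrial-type potassium channel, by 0.53 ± 0.12, both with overlap. Calcium handling had 2 higher and 1 lower of 18 (11.2% and 7.54% of named genes), with the T-type channel Cacna1g at 0.47 ± 0.12 and the channel subunit Cacnb2 at -0.27 ± 0.09. The clock list had 2 of 21 lower and none higher (7.54% and 11.2% of named genes), Cry2 (-0.38 ± 0.09, no overlap) and Rora (-0.39 ± 0.11). Of 30 genes of DNA replication and mitosis 2 were higher and 1 lower, and of 27 interferon response genes 0 and 1 (11.2% and 7.54% of named genes). Of those 27, 24 were lower and none higher in the 6 TAC arrays (10.5% and 9.63% of named genes).

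Markers of heart muscle cells themselves differed little. Of 12, 1 was lower at an unadjusted p under 0.05, Ckm, the muscle creatine kinase (-0.35 ± 0.12), and the median was 0.01. The shares of named genes at that p, 11.2% higher and 7.54% lower, are the background for each list in this paragraph. Sarcomere and Z-disc genes had 2 higher and 1 lower of 22, led by Mybpc2, a myosin-binding protein (0.93 ± 0.24), with Nebl at -0.41 ± 0.13. Some genes typical of skeletal muscle differed in both directions, Tnnt3, fast troponin T, by 1.18 ± 0.29 (0.63 after normexp) and Atp2a1, the fast calcium pump, by -0.56 ± 0.15, both without overlap. That list had 5 higher and 2 lower of 14 (11.2% and 7.54% of named genes), and Acta1 is one of the 5. Of 9 atrial markers 2 were higher at that p, Nppa and Kcna5 (0.53 ± 0.12), and none lower, with a median of 0.19. Of the 9, 5 differed upwards and 4 downwards, and the atrial markers named here are all among the upward ones. With 1 array left out their median ran from -0.10 to 0.41. Myl7, the atrial light chain, read -2.45 to -1.06 in Cre and -2.11 to -0.54 in KO, and Sln was well above background on 2 Cre and 3 KO arrays. Endothelial markers had 4 of 20 lower and none higher (7.54% and 11.2% of named genes), with a median of -0.12, among them Pecam1 (-0.40 ± 0.09), the receptor Kdr (-0.46 ± 0.13) and Sox18 (-0.42 ± 0.15), while Cdh5 differed by -0.07 ± 0.11. The endothelial count was 1 without slide 2, 2 without slide 3 or with no block, and 0 on slides 1 and 3 alone (1.39% of named genes there). In the 6 TAC arrays 1 was lower and 2 higher (10.5% and 9.63% of named genes). Mesothelial markers had 3 of 14 higher (11.2% of named genes), Clu (0.45 ± 0.12), C3 (0.43 ± 0.15) and Krt18 (1.63 ± 0.62), and the defining marker Msln differed by 0.04 ± 0.54. Red cell markers had none of 7 at that p, with Hba-a1 at -0.28 ± 0.24, and adipocyte markers 1 higher and 1 lower of 10, with Adipoq at -0.83 ± 0.51 (-0.29 after normexp). Smooth muscle and pericyte markers had 1 higher and 2 lower of 17. The part of these cell types in the differences above was not tested.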

How the data were processed

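Total RNA from the heart apex was amplified, given the Cy3 dye and read on Agilent arrays of 1 colour, per the labels' protocols. The deposited intensity values are Agilent Feature Extraction 10.7.3.1 processed signals (protocol GE1_107_Sep09), which per the file headers had background subtracted and spatial trends removed but were not scaled across arrays. The authors' value table holds log2 values on a shared distribution. The submitters' processing notes name limma without a step, so that table served only as an alternative.

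Control spots were left out and 1264 outlier spots set missing. Signals were put on the log2 scale and each array's 75th percentile was subtracted. Of 41174 probes, 30961 were well above background on at least 3 of the 8 sham arrays and were kept; each gene was represented by the brightest of its probes and probes with no gene entered singly, which gave 24475 features. Gene names came from RefSeq (GRCm38.p6) and matched 24836 probes. The difference was fitted with limma 3.58.1 (R 4.3.3; lmFit, eBayes) with slide as a fixed block and Benjamini-Hochberg adjustment over all features, called at 0.05, and the fit was tested on simulated data. Arrays of 1 slide deviated together from their group means (correlations 0.577, 0.486, 0.464 and 0.511), so slides pair the samples, and the replicate numbers of the labels did not (-0.386 to 0.486).

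Of the features named in the text, 128 were taken from 220 that were called, were among the 10 named features of smallest unadjusted p in each direction without overlap, lay near Klf4, were among the 4 of smallest p in a gene list, or belonged to a fixed set of cardiac and metabolic genes and defining markers. Ccl27a and Ccl19 were added afterwards, from the features that passed with slide as a random block. Members and lists were chosen with earlier results of these data known. The planned repeat of sham calls in TAC arrays had no members, so it used the 6 features called with no block. No spot was saturated, no 2 arrays were identical, and 4 animals a group set the precision.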

Additional observations from a re-analysis of the deposited data

Results flagged for a closer look

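Among the 256 groups of 4 sham values behind 128 of the features named in the report, 15 held 1 array far from the other 3 by Dixon's criterion, and chance alone flags about 1 in 20 groups. On slide 1 the Cre array stood out for Bckdha (6.32, others 6.0 to 6.05), Ogdh (4.87, others 4.35 to 4.36), Sox18 (3.55, others 3.05 to 3.12) and Il1r2 (-6.59, others -7.81 to -7.61), and the KO array for Tead1 (-4.98, others -4.37 to -4.27). Both arrays of that slide were low for Cox7c, at -0.17 in Cre and 0.88 in KO, where the others read 3.61 to 4.35 and 4.29 to 4.7. On slide 3 the Cre array was low for Idh2 (5.58) and the KO array high for Elk4 (-3.36) and Ppara (2.7, others 2.15 to 2.22). On slide 4 the Cre array was low for Nppa (5.54, others 6.63 to 6.79), and the KO array was low for Bmp8a (-5.71), Ppargc1b (2.84) and Smoc2 (0.69, others 1.52 to 1.55) and high for Esrra (4.81, others 4.42 to 4.44).

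The genotype difference itself differed between operations for 2 of these 128 features by a test of that difference over all 15 arrays (limma, slide as a block, TAC minus sham). For C3, a complement gene, it was -2.12 (adjusted p = 0.0385), from 0.43 in sham to -1.68 in the 7 TAC arrays, and for Mybpc2 it was -2.73 (adjusted p = 0.0444), from 0.93 to -1.67. Without KO TAC replicate 4 it was -2.0 for C3 (adjusted p = 0.0197) and -2.70 for Mybpc2 (0.0297), and 6 others of the 128 passed: Nppa (-1.72), Scg3 (-1.61), Dpt (-1.37), Ppargc1a (-1.34), Elavl4 (-0.89) and Xbp1 (0.74), by limma adjusted p between 0.0332 and 0.0497. Over all features 0.0613% passed with 15 arrays and 1.46% with 14.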

How the results depend on the processing

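With slide as a fixed block 0 features were called, and the count was 0 whichever single array was left out, without both arrays of slide 1 (chosen after seeing the data), with only the arrays described as sham, with median scaling, with no filter, with probes averaged, with outlier spots kept or with array weights. It was 338 with slide as a random block, 24 with 14 arrays (without KO TAC replicate 4), 9 with a trended and robust prior, 7 with the authors' values under either set of labels (1 higher and 6 lower with the scanner files' genotypes, 6 and 1 with the table's own, which turn every sign, for example Hdhd3 to -1.46, Klf3 to 1.17, and the probes A_51_P370073 to 2.30, A_52_P458141 to 1.59, A_52_P628870 to 1.79, A_52_P908036 to 1.18 and A_52_P256507 to 1.76), 6 with no block, 6 with probes well above background on all 8 arrays, 5 with all 15 arrays and slide as a block, 4 with all 15 and no block, 5 after normexp and quantile normalization and 1 after quantile normalization. The number at an unadjusted p under 0.05 was 4843 and became 2484 with no block, 1639 and 1183 with all 15 arrays with and without the slide block, 1372 with only the arrays described as sham, and 3020 to 4766 with 1 array left out. The replicate block, which pairs arrays by number although the numbers do not pair them, gave 0 calls and 1724 at that p. Of the 6 features called with no block, 0 passed in 7 TAC arrays and 2 without KO TAC replicate 4. Of the 220 features tracked, 196 kept their sign in every alternative but the table's labels (27 each). The list medians were followed in fewer alternatives, not including normexp or the authors' values, and 20 of 39 kept their sign in all of these. Dim probes limit Bmp8a, Il1r2 and A_52_P908036 to bounds, which are for the scanner files' own background subtraction only. A_52_P628870 was well above background on 1 of 4 KO arrays, and the size of the dim genes' differences depends on the background correction.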
